A study of Mus musculus with 8 samples.

Results

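The transcript clusters described here are those for which the platform table used here gives no gene symbol and whose numeric ID is 6000000 or more. A transcript cluster is the unit of the array that gathers the probes of 1 transcribed locus and reports 1 value for it. There were 740 such clusters among 23332 in all, or 3.17% of the table. They made up 4.42% of the 16755 clusters with an ID in this range. The remaining 16015 clusters of that range were listed in the platform table, 14996 with 1 gene symbol and 1019 with several. A cluster absent from the table is unnamed here, which does not mean that it lies outside a gene. Another 6577 unnamed clusters had lower IDs, from 4305140 to 5617578, and no row of the table lay between the latter ID and 6747308. The first of the 740 members, 6748888, had a mean log2 value of 3.96 in cells and 4.41 in exosomes. The last unnamed cluster below the limit, 5617578, had 3.71 and 4.57, with values from 1.99 to 4.62 over the cell arrays. Neither of these clusters exceeded background, as defined below, on any array.

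The samples were mouse melanoma cells of the pigmented line B16F0, kept for 24 h without serum, and exosomes isolated from serum-free medium that such cells had conditioned for 24 h. There were 4 samples of each, with 1 Affymetrix mouse exon array per sample, and the cells and their exosomes shared line, medium and time. All samples derive from 1 cell line, and the sources used here do not give how the exosomes were purified. Nothing in the labels states that the samples within a group were separate cultures, so p-values reflect sample-to-sample spread alone, which may be technical.

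Exosomes are small membrane vesicles that cells release, and they carry RNA and protein from the cell that made them. Full-length messenger RNA, fragments of it and non-coding RNA have all been found in such vesicles. Whole-transcript arrays label RNA along its length and compare samples at an equal mass of labelled cDNA, so that a value is relative to the RNA put on the array. A lower value in exosomes is thus read as a smaller share of the RNA put on the array and does not give a number of copies. That reading depends on how the arrays are scaled, and the deposited values of the groups did not share a distribution. Words such as rose, fell, higher and lower refer below to the deposited values unless another scaling is named. On these arrays a cluster can be a gene whose symbol was missing or withdrawn when the annotation was made, a predicted or non-coding transcript, or a stretch of a known gene held as a separate cluster. The symbols, probe sequences and positions of the 740 were not used here, so each is given by its ID.

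The labelled cell type was checked on 7 measured melanocyte markers, among them the pigment enzymes Tyr, Tyrp1 and Dct and the transcription factors Mitf and Sox10. All 7 were above background on every array, with mean log2 values from 11.55 to 13.79 in cells and from 7.85 to 12.39 in exosomes. Of 9 measured markers of other cell types, such as the leukocyte gene Ptprc and the endothelial gene Pecam1, only the collagen gene Col1a1 was above background on every array, at 6.72 in cells and 6.90 in exosomes. Background was taken from 844 clusters of chemosensory genes, which code for receptors of smell, pheromones and taste. A cluster was above background on an array when it exceeded the 95th percentile of these genes there. That threshold was 5.74 ± 0.03 in cells and 6.49 ± 0.06 in exosomes (log2, mean ± SD, n = 4 arrays each). The upper range of the whole table was lower in exosomes, with a 75th percentile of 7.13 ± 0.06 against 8.53 ± 0.06 in cells. Precision is limited by the number of arrays.

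The 740 unnamed clusters were on the whole dim, with a minority as bright as well expressed genes. Their median log2 value on the 4 cell arrays was 5.74, 5.79, 5.80 and 5.78, and on the 4 exosome arrays 5.64, 5.68, 5.61 and 5.59. The medians of the groups did not overlap, although they lay close to each other, at 5.78 ± 0.03 on the cell arrays and 5.63 ± 0.04 on the exosome arrays (mean ± SD, n = 4). For clusters with 1 gene symbol the corresponding medians were 6.97 ± 0.06 and 6.02 ± 0.02. The 75th percentile of the unnamed clusters was 8.25 ± 0.08 in cells and 6.88 ± 0.05 in exosomes, beside 8.84 ± 0.06 and 7.30 ± 0.07 for clusters with 1 symbol. At the 95th percentile the values were 10.63 ± 0.02 and 9.80 ± 0.08, beside 10.75 ± 0.03 and 9.77 ± 0.06. The upper ends of the unnamed clusters and of those with 1 symbol were thus close to each other. The middle of the distribution in cells was lower for the unnamed ones than for those with 1 symbol. Clusters with several symbols lay lower than the unnamed ones, with a median of 5.32 ± 0.03 in cells. Their 95th percentile was 10.24 ± 0.04 in cells and 9.25 ± 0.07 in exosomes.

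In cells the levels of the members had a broad upper shoulder that was smaller in exosomes. Group means ranged from 1.42 to 14.04 in cells and from 1.40 to 13.99 in exosomes. In cells 177 of the 740 lay between log2 7.5 and 10 and 68 at 10 or more. In exosomes these numbers were 92 and 33.

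**Figure D1:**
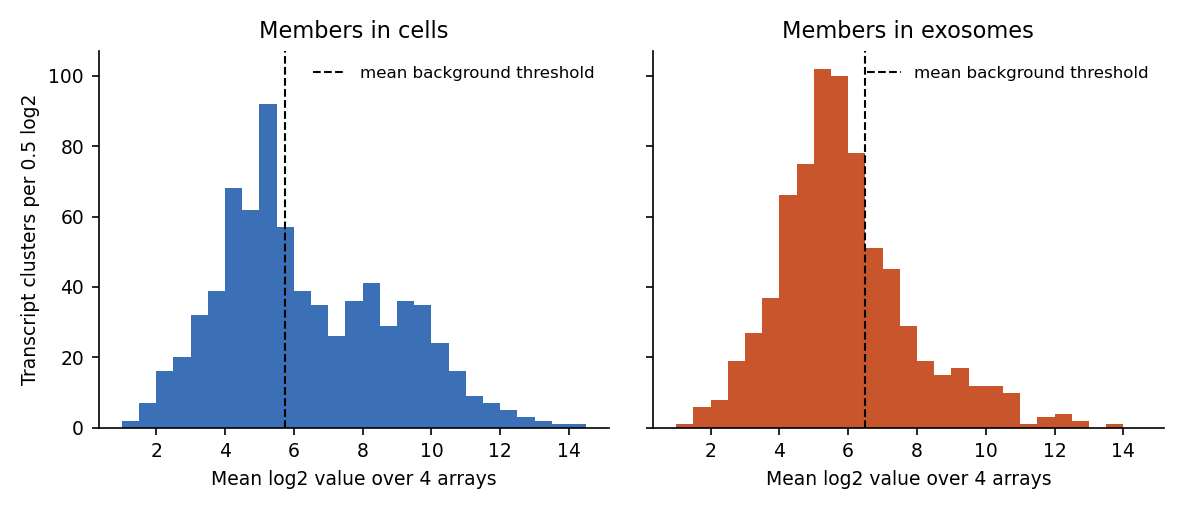
Histograms of the mean log2 value of the 740 unnamed high-ID clusters over the 4 cell arrays (left) and the 4 exosome arrays (right), in bins 0.5 wide. The vertical axis counts clusters, and the dashed line is the mean background threshold of the group, 5.74 in cells and 6.49 in exosomes.

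Nearly all unnamed clusters detected in exosomes were also detected in cells, while many members detected in cells were below background in exosomes. Of the 740, 359 or 48.5% exceeded background on all 4 cell arrays and 193 or 26.1% on all 4 exosome arrays. Both conditions held for 192, which is 53.5% of the cell set and 99.5% of the exosome set. A further 113 passed the threshold on every cell array but never in exosomes, and 340 or 45.9% passed it on no array at all. The other 95 were above it on some arrays only or on all arrays of cells and some of exosomes. By single array, 371 to 378 members exceeded the threshold in cells and 210 to 232 in exosomes. Among clusters with 1 symbol, 61.6% passed the threshold in cells and 34.9% in exosomes, with 33.3% on no array. The set shared by both groups was 56.4% of their cell set and 99.6% of their exosome set. Among unnamed clusters of lower ID the shares were 28.2% in cells and 22.2% in exosomes, with 59.6% on no array. In the same order they were 41.6%, 22.7% and 51.5% among clusters with several symbols. Over all clusters they were 50.9%, 30.5% and 41.9%. The threshold was higher in exosomes, so these counts depend on level.

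The only member above background on all exosome arrays but not on all cell arrays was 7005516, named after its values were seen. Its values were 5.55, 6.05, 5.39 and 6.06 in cells and 8.02, 7.49, 7.85 and 7.84 in exosomes. Every exosome value lay above every cell value, and 2 of the 4 cell arrays exceeded background. It rose 4.10-fold (log2 difference 2.04 ± 0.18 SE, 4 arrays per group, adjusted p = 1.39e-05). The number of members detected on all exosome arrays but never in cells was 0.

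Of the 740 unnamed clusters, 436 differed between exosomes and cells, 306 lower and 130 higher in exosomes (limma, Benjamini-Hochberg adjusted over all 23332 clusters, called below 0.05). That is 58.9% called, beside 59.3% of all clusters. By direction, 41.4% were lower, beside 42.9% of all clusters, and 17.6% were higher, beside 16.4%. A difference of at least 2-fold was called lower for 204 members, or 27.6% beside 31.1% of all clusters, and higher for 31, or 4.19% beside 5.43%. The shares among the members were near those of the whole table. Clusters with 1 symbol were called lower in 51.9% and higher in 14.6%, those with several symbols in 38.6% and 18%, and unnamed clusters of lower ID in 23.1% and 20%. Calls at least 2-fold higher made up 2.6%, 5.1% and 12.1% of these classes in that order. Cell and exosome values did not overlap for 419 members, 309 lower and 110 higher, or 56.6% beside 56.4% of all clusters (42% lower and 14.4% higher), and 403 of the 419 were also called. Of the 740, 304 did not pass the test.

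The median log2 difference, exosomes minus cells, was -0.09 over the 740 members, -0.38 over clusters with 1 symbol and -0.08 over clusters with several symbols. It was -0.01 over unnamed clusters of lower ID and -0.20 over all clusters. The quartiles of the members were -1.21 and 0.24, and their extremes -6.06 and 4.43. For clusters with 1 symbol the quartiles were -1.59 and 0.15. The split of calls depended on how the arrays were scaled. Calls among members were 130 higher and 306 lower as deposited. With quantile normalization they were 223 and 201, with cyclic loess 230 and 200, and with each array centred on the chemosensory genes 25 and 545. The median of all clusters became 0.05 with quantile normalization, 0.03 with cyclic loess and -0.80 with centring. Relative to the median of all clusters, that of the members lay 0.11 higher as deposited and with centring, 0.04 higher with quantile normalization and 0.02 higher with cyclic loess. Of the 204 members at least 2-fold lower, 161 were called lower under each of the 3 other scalings. Of the 31 at least 2-fold higher, 24 were called higher under each. Only 9 of the 31 were above background on all arrays of both groups, so a call kept over scalings is not by itself detection in exosomes.

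**Figure D2:**
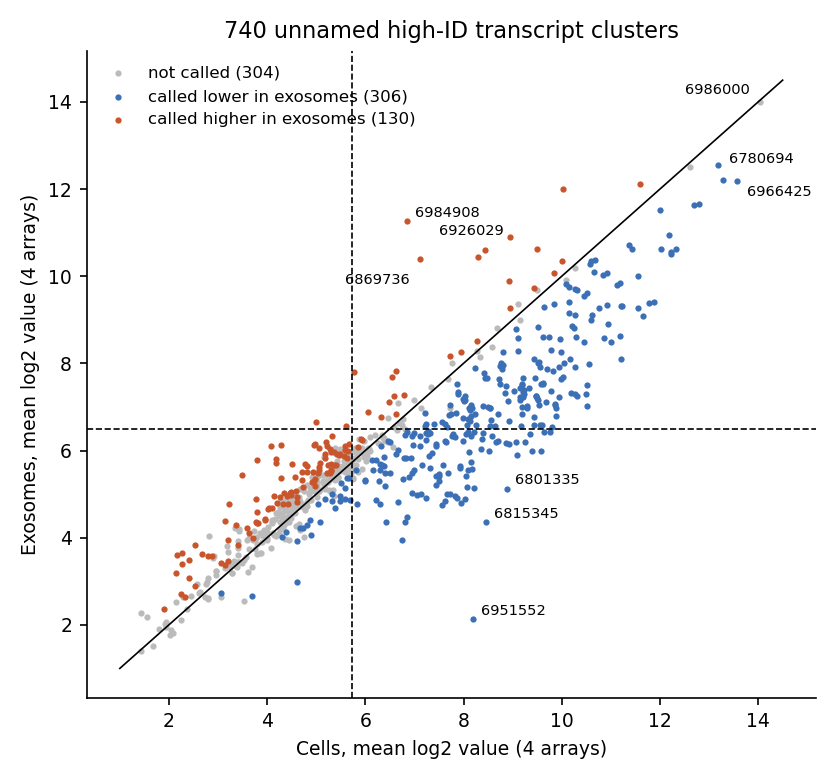
Mean log2 value of each of the 740 unnamed high-ID clusters in exosomes (vertical) against cells (horizontal), 4 arrays per group, with the line of equal values and the mean background thresholds dashed. Of the points, 306 were called lower and 130 higher in exosomes and 304 were not called, and IDs mark clusters whose values on every array are given in the text.

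In the deposited values the difference went with the level of a cluster, in unnamed and named clusters alike. Among the 340 members on no array above background, 93 or 27.4% were called higher and 21 or 6.18% lower, and their median log2 difference was 0.19. The 844 chemosensory clusters that set the background had a median difference of 0.47, with quartiles 0.16 and 0.83. Rises of members within background were not told apart from this shift. Over all clusters on no array above background, 2081 of 9778 or 21.3% were called higher and 667 or 6.82% lower, with a median of 0.14. Of those with 1 symbol, 27% were called higher and 5.31% lower. These 93 were 71.5% of the 130 members called higher, beside 54.5% of the 3818 clusters called higher in the whole table. Of the 130, 25 or 19.2% were above background on all exosome arrays, beside 33.2% of the 3818. The same shares of the clusters called higher were 61.5% and 28% with 1 symbol and 72.1% and 16.9% with several symbols. For unnamed clusters of lower ID they were 38.7% and 45.4%. Among the 192 members above background in both groups, 151 or 78.6% fell, 24 or 12.5% rose and 17 did not pass the test, with a median of -1.21. Over all 6953 clusters above background in both groups, 72.9% fell and 15.8% rose, with a median of -1.09. Of the 5212 of these with 1 symbol, 77.5% fell and 11.4% rose, with a median of -1.16.

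At like mean level over all 8 arrays, the median difference of members lay above that of clusters with 1 symbol in some bins and below it in others. Bins 1 log2 unit wide with at least 20 members covered levels from 2 to 11. Between 5 and 6, which held 185 members, the median log2 difference was 0.11 for members and 0.04 for the 2855 clusters with 1 symbol. Between 7 and 8 it was -1.41 for 72 members and -1.61 for 2448 clusters with 1 symbol. Between 8 and 9 the order was the other way, at -1.93 for 77 members and -1.55 for 1838 clusters with 1 symbol. Over the 9 bins, members minus clusters with 1 symbol ranged from -0.38 to 0.26, beside 0.29 between the medians without bins. After quantile normalization and cyclic loess the sign of this gap was the same in every one of these bins, except between 3 and 4 after cyclic loess (0.01 as deposited, -0.0046 then). Centring moves both classes alike, so the gap cannot change with it. The sign of the medians themselves was not kept: between 6 and 7 that of the members was -0.82 as deposited, -0.03 after quantile normalization and 0.02 after cyclic loess. Between 7 and 8 the members' -1.41 became -0.13 and -0.08 under these scalings, and -2.01 with centring. For clusters with 1 symbol the -1.61 became -0.32, -0.26 and -2.21 in that order. The fall with level was thus much smaller after quantile normalization and cyclic loess. By level, 55.7% of members had a mean below 6, beside 42.1% of clusters with 1 symbol, and 21.5% had a mean of 8 or more, beside 25.8%.

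**Figure D3:**
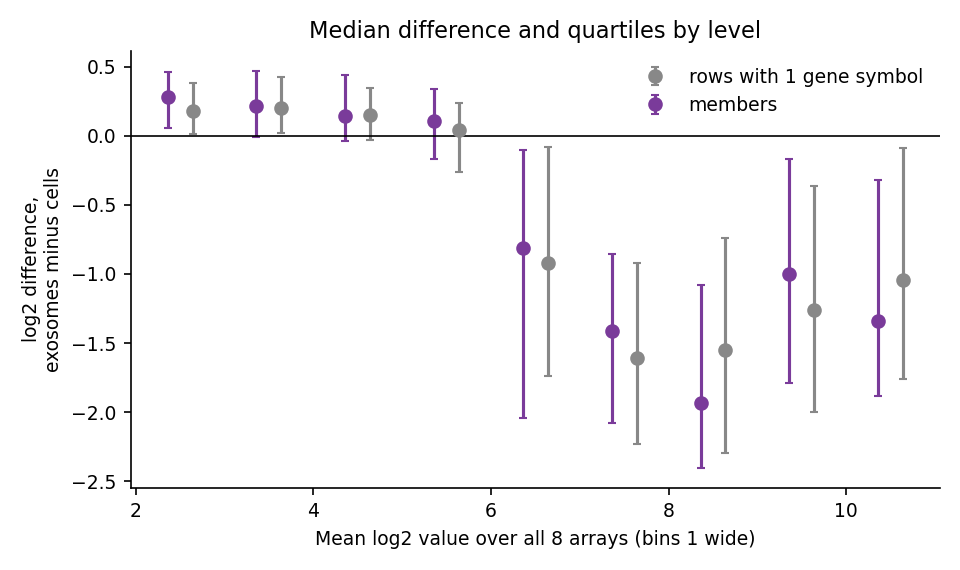
Median log2 difference, exosomes minus cells, with the quartiles as bars, for unnamed high-ID clusters and clusters with 1 gene symbol in bins of mean log2 value over all 8 arrays. Only bins with at least 20 members are drawn, and in these deposited values medians turn from above to below 0 at level 6 in both classes.

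The spread between replicate arrays is given as the median SD of a class. The median SD over 4 arrays was 0.12 in cells and 0.17 in exosomes for members, 0.11 and 0.15 for clusters with 1 symbol, and 0.33 and 0.40 for unnamed clusters of lower ID. These differences in spread were not tested.

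The largest rise among the members was that of cluster 6984908. Its log2 values were 6.57, 6.87, 6.79 and 7.13 in cells and 11.20, 10.97, 11.52 and 11.38 in exosomes. All exosome values lay well above all cell values, and all 8 arrays were above background. It rose 21.6-fold (log2 difference 4.43 ± 0.15 SE, 4 arrays per group, adjusted p = 6e-08), the 14th largest difference of all 23332 clusters. After the other scalings the difference was between 3.83 and 5.84. Cluster 6869736 had 7.36, 7.27, 7.11 and 6.71 in cells and 10.45, 10.24, 10.38 and 10.50 in exosomes, again with no overlap. It rose 9.71-fold (3.28 ± 0.14, adjusted p = 1.6e-07). Cluster 6926029 had 8.51, 8.36, 8.54 and 8.37 in cells and 10.46, 10.66, 10.64 and 10.65 in exosomes. It rose 4.47-fold (2.16 ± 0.08, adjusted p = 7.72e-08), and the rises of all 3 were called under each scaling.

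Of the members above background in both groups, 9 of 192 or 4.69% rose at least 2-fold, beside 503 of 6953 or 7.23% of all clusters above background in both. By class this share was 3.88% with 1 symbol, 3.12% with several symbols and 21.5% for unnamed clusters of lower ID. The last class held 285 of the 503. After the 3 largest rises came 6798180 at a log2 difference of 2.15, 6865926 at 1.97 and 6926477 at 1.96, named after their values were seen. The other 3 had differences from 1.11 to 1.21. Cluster 6865926 was also bright, with a mean of 10.04 in cells and 12.01 in exosomes.

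The 3 members with the most negative measured differences went from levels of about log2 8 to 9 in cells to levels within background in exosomes. Their measured differences rest on exosome values below the threshold, so they do not rank the members by size of fall. Cluster 6951552 had 8.01, 8.34, 8.16 and 8.27 in cells and 2.67, 2.06, 1.47 and 2.35 in exosomes. Its log2 difference of -6.06 ± 0.24 SE (4 arrays per group, adjusted p = 9.19e-08) rests on those exosome values. Since no exosome array exceeded background, its fold is a bound: against that threshold on the exosome arrays it was at least 3.26-fold lower as deposited. This bound and those below hold for the deposited values and were not computed under the other scalings.

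Cluster 6815345 had 8.48, 8.36, 8.50 and 8.48 in cells and 4.32, 4.34, 4.47 and 4.28 in exosomes. It was at least 3.91-fold lower (log2 difference -4.10 ± 0.07, adjusted p = 2.65e-08). Cluster 6801335 had 8.97, 8.80, 8.94 and 8.81 in cells and 5.14, 4.91, 5.33 and 5.13 in exosomes. It was at least 5.25-fold lower (-3.75 ± 0.10, adjusted p = 3.28e-08). None of the 3 overlapped between groups, and all were called lower under each scaling. The bounds run in the opposite order to the measured differences. With every exosome value below the threshold, they follow the cell means of 8.20, 8.46 and 8.88 alone and do not order the clusters in exosomes.

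Among members above background on all 8 arrays, the most negative difference was that of 6762019, named after its values were seen. It had 10.47, 10.48, 10.57 and 10.58 in cells and 6.95, 6.85, 7.00 and 7.26 in exosomes. Every exosome value lay more than 3 log2 units below the cell values, and the fall was 11.4-fold (log2 difference -3.51 ± 0.10 SE, 4 arrays per group, limma adjusted p = 3.4e-08). It was called lower under each scaling, at -2.07 to -4.10.

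The brightest cluster of the whole table in cells was an unnamed one, 6986000. Its values were 14.12, 14.08, 13.99 and 13.98 in cells and 13.93, 13.94, 14.01 and 14.07 in exosomes, where its mean ranked 2. The groups overlapped, and its log2 difference of -0.05 did not pass the test (95% interval -0.22 to 0.11, limma adjusted p = 0.545). After centring on chemosensory genes it was called lower, at -0.65.

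The next brightest member in cells, 6966425, had 13.61, 13.60, 13.52 and 13.51 in cells and 12.13, 12.23, 12.16 and 12.22 in exosomes. It fell 2.60-fold (log2 difference -1.38 ± 0.06 SE, 4 arrays per group, adjusted p = 2.2e-07). Cluster 6780694, the next brightest in exosomes, had 13.19, 13.16, 13.27 and 13.12 in cells and 12.51, 12.64, 12.51 and 12.55 in exosomes. It fell 1.55-fold (-0.63 ± 0.07, adjusted p = 4.92e-05), but after cyclic loess the difference was -0.09 with an adjusted p of 0.302. The groups did not overlap for either cluster.

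Among members above background on all 8 arrays, 6763810 and 6882352 had the smallest differences. Cluster 6763810 had 8.46, 8.13, 8.34 and 8.15 in cells and 8.18, 8.25, 8.35 and 8.39 in exosomes. Cluster 6882352 had 7.62, 7.73, 7.61 and 7.77 in cells and 7.60, 7.50, 7.83 and 7.65 in exosomes. The groups overlapped for both. The log2 differences were 0.02 (95% interval -0.21 to 0.25) and -0.04 (-0.24 to 0.17). Near 0 as deposited, they were 1.32 and 1.24 after quantile normalization, then 1.49 and 1.38 with cyclic loess and -0.57 and -0.63 with centring.

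**Figure D4:**
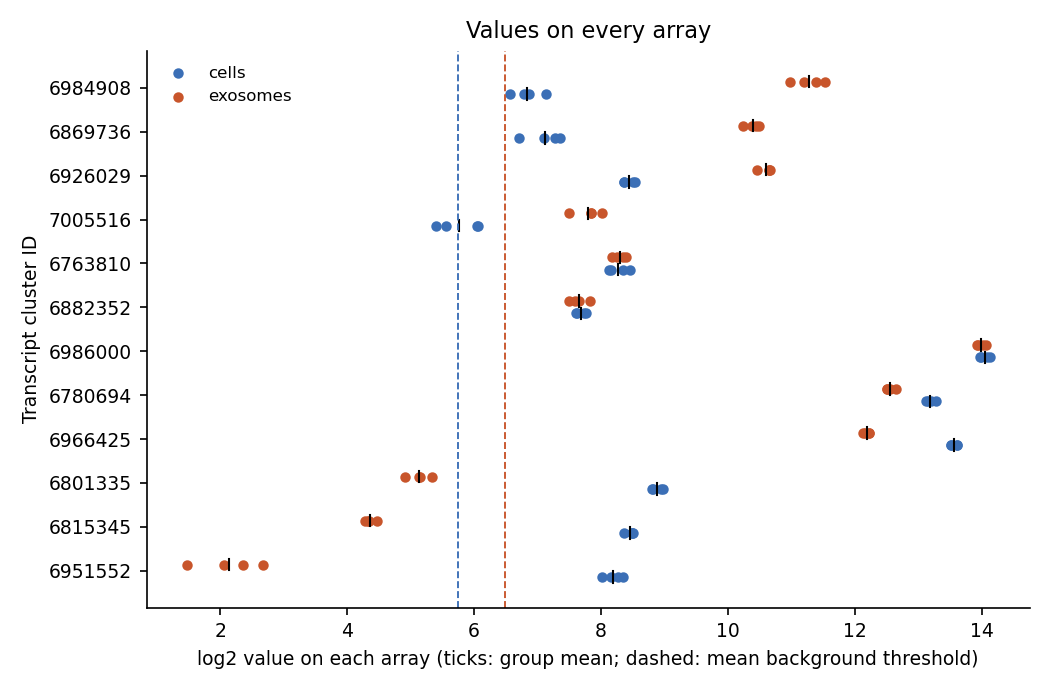
Log2 value on each of the 8 arrays for 12 of the unnamed clusters described in the text, ordered by difference, with cells in blue, exosomes in orange, group means as ticks and mean background thresholds dashed. Only 6763810, 6882352 and 6986000 have overlapping groups, and 6951552, 6815345 and 6801335 end left of the exosome threshold.

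Named clusters allowed a description of where the unnamed ones stand in the order of IDs. Of 14996 clusters with 1 symbol, 14969 had a symbol in a RefSeq table of assembly GRCm38.p6. Of pairs that followed each other by ID, 99.1% lay on the same chromosome. Of 12011 with a known strand, 98.8% of such pairs lay on the same strand. Within a chromosome and strand, the start rose with the ID in 98.5% of pairs. IDs thus followed the order of genes along each strand. That assembly is not the build of the submitters, mm8, so no coordinates are given. For 713 of 736 members with both neighbours in that table, or 96.9%, the nearest named clusters below and above by ID lay on the same chromosome.

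The members were spread along the whole ID series. When the 16755 clusters were cut by ID into 10 stretches of equal number, their share of a stretch ranged from 3.28% to 5.19%. The median log2 difference of the members in a stretch ranged from -0.25 to 0.05, beside -0.53 to -0.13 for clusters with 1 symbol. There were 625 members that stood alone between listed clusters, 53 runs of 2 and 3 runs of 3. Among the 59 pairs within runs, 11 were both called lower, 3 both called higher, 1 in opposite directions, and 44 had fewer than 2 calls.

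The differences of the members were only loosely related to those of their named neighbours. Across the 740, the log2 difference of a member correlated with the mean difference of both flanking named clusters at r = 0.148 and rho = 0.132. For the mean level over all arrays the values were 0.210 and 0.200. The same measure for 14994 clusters with 1 symbol gave 0.177 and 0.197 for the difference and 0.314 and 0.292 for the level. For 199 members with an ID next to that of a named cluster, the difference correlated with that of the neighbour at r = 0.141 and rho = 0.100. By comparison, the first 2 clusters of 135 genes that had more than 1 correlated at r = 0.680 and rho = 0.606. These are descriptions across clusters of the same 8 arrays, and no p-value is given. Of the 306 members called lower, 100 or 32.7% had both neighbours called lower, and of the 130 called higher, 35 or 26.9% did. Over all 740 members the share was 28.6%, and over clusters with 1 symbol it was 29%, so both shares lay near that background. Both neighbours were called higher for 7 of the 306 and 7 of the 130, or 2.29% and 5.38%, beside 3.65% of all members.

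**Figure D5:**
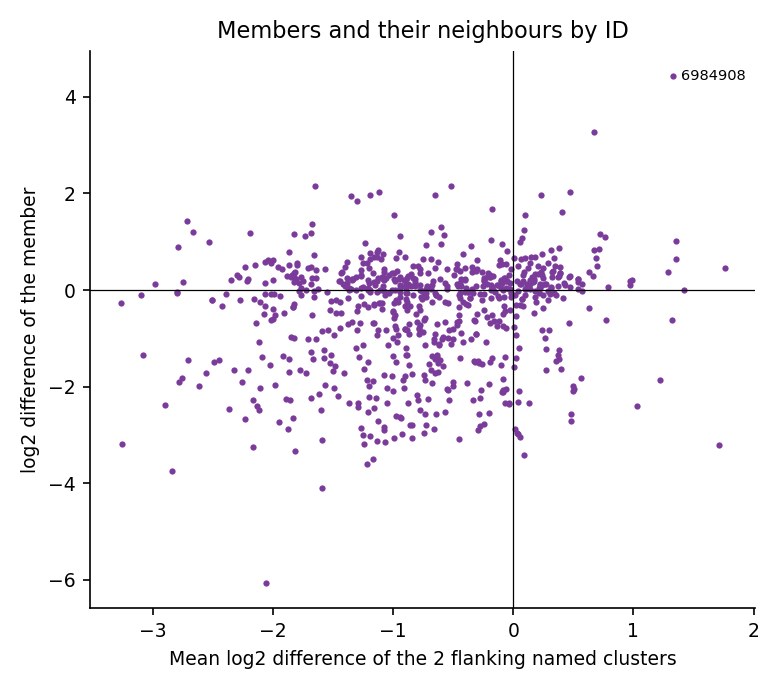
Log2 difference, exosomes minus cells, of each of the 740 unnamed clusters (vertical) against the mean difference of the nearest named clusters below and above by ID (horizontal). The points form a broad cloud with r = 0.148, and the marked cluster 6984908 lies at the upper right.

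The largest rise stood beside a named cluster that rose as well. Cluster 6984908 carries the ID directly before that of Cmtm4, a gene for a MARVEL domain protein of cell membranes. Cmtm4 had log2 values of 8.88, 8.75, 8.74 and 8.90 in cells and 12.70, 12.80, 12.73 and 12.76 in exosomes. Its difference was 3.93 ± 0.07, beside 4.43 ± 0.15 for the unnamed cluster, and the groups overlapped for neither. The neighbour on the other side, Tk2, which encodes a mitochondrial thymidine kinase, fell by 1.28 on the log2 scale. Being next by ID does not assign the unnamed cluster to Cmtm4.

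For the other clusters named above the neighbours went both ways. Cluster 6869736 stood between Lcor, a nuclear receptor corepressor whose log2 difference was 1.29 (adjusted p = 9.63e-06), and Frat1, a regulator of Wnt signalling, at 0.04 (adjusted p = 0.684). Cluster 6926029 rose between a pair of genes that fell, the Golgi mannosidase gene Man1c1 (-1.53) and Maco1 (-1.76). Cluster 6951552 stood between the asparagine synthetase gene Asns (-1.52) and Ica1 (-2.59), which both fell. Cluster 6801335 stood between Fkbp3, a prolyl isomerase gene (-3.11), and Mdga2 (-2.56), which also fell. Cluster 6815345 had Polk, which encodes a DNA polymerase that copies past damage, on 1 side (-3.35), and 5330416C01Rik, at 0.16 and not called, on the other. The brightest cluster, 6986000, stood between Fanca, a gene of DNA crosslink repair whose log2 difference was 0.55 as deposited (adjusted p = 0.000283), and Dbndd1 (0.13, adjusted p = 0.114).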

How the data were processed

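Per the labels' protocols, total RNA from 4 cell and 4 exosome samples was converted with a whole-transcript kit, biotin-labelled and hybridised to mouse exon arrays. RMA (background correction, normalization, probe summary) in Affymetrix Expression Console and build mm8 are named per the submitters' processing notes, without versions. The authors deposited log2 values (0.65 to 14.1), and the 2 groups did not share a distribution. Of 23332 rows, 16015 were listed in the platform table and none with an empty symbol.

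Groups were compared on the whole table with limma (version 3.58.1, R 4.3.3; lmFit, eBayes, two-sided, Benjamini-Hochberg). Folds are powers of 2 of log2 differences. A cluster above background on no exosome array was given a bound, the cell mean against, per array, the higher of threshold and value. The steps were checked on simulated data. Replicate numbers were no block: deviations of same-numbered cell and exosome arrays correlated at -0.055 to 0.001. No 2 arrays held identical values. Figures used matplotlib 3.10.9 (Python 3.11.15).

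The members, lists and tests were chosen with earlier results of these data known. Clusters named were the 3 largest rises and falls among called members without overlap and above background in the higher group, the 2 highest in each group and the 2 smallest differences among members above background on all 8 arrays. Exceptions are marked. Alternatives were 3 scalings, a dim-signal filter, array weights, a trended robust prior, the replicate block, a stricter p, other rules for background and the omission of single arrays.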

Additional observations from a re-analysis of the deposited data

Results flagged for a closer look

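In 30 groups of 4 arrays, taken over 12 of the clusters named above, the median levels of unnamed and named clusters and the number of members above background, 2 had 1 array far from the other 3. Chance gives about 1 in 20 such cases. Cluster 6926029 had 10.46 on exosome array 1, against 10.64 to 10.66 on the others. Cluster 6815345 had 8.36 on cell array 2, against 8.48 to 8.50 on the others. Both kept their call without that array.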

How the results depend on the processing

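Of 436 calls among the members, each alternative gave between 314 and 570, with 410 under the replicate block and 395 to 428 when 1 array was left out. The block ended or turned no call among the 20 clusters recomputed singly, which are those chosen by the rule, the members that rose 2-fold above background in both groups, 7005516, 6762019 and 6748888. The numbers by direction moved with the scaling. Calls higher in exosomes, 130 as deposited, were 223 after quantile normalization, 230 after cyclic loess, 25 after centring on chemosensory genes, 31 with only clusters above background in at least 1 group (fewer were tested) and 66 at an adjusted p below 0.01. Calls lower, 306 as deposited, were 201, 200 and 545 under the 3 scalings in that order. At 2-fold, 235 in all became 148 after cyclic loess. The 31 higher became 66, 66 and 13 under the scalings and 10 with the dim filter, and the 204 lower became 96 after quantile normalization and 82 after cyclic loess. The median log2 difference of -0.09 became 0.089, 0.053 and -0.69 under the scalings and -1.25 with the dim filter, which admits members through cells alone and so sets part of that shift itself. Members above background in exosomes, 193 in all, were 119 above the 99th percentile. The near-zero difference of 6763810 turned to -0.57 after centring and ranged from -0.027 to 0.085 without 1 array, and that of 6882352 became 1.24 after quantile normalization, 1.38 after cyclic loess and -0.098 to 0.011 without 1 array. That of 6986000, not called as deposited, became 0.15 after cyclic loess. Of the clusters called as deposited, 6780694 lost its call after cyclic loess (-0.09), and 6748888 lost it after cyclic loess (0.27) and at an adjusted p below 0.01, and was -0.15 and not called after centring. For these 20 clusters, 303 values kept their direction and side of the threshold and 9 changed sign. Of the values that kept their sign, 4 newly passed the threshold and 3 no longer did. Some of the 9 also crossed the threshold and are not among those 4 and 3. The causes were not tested. A split by rows listed with an empty symbol could not be made, since there were 0. Signal near background limits what can be said of the 340 members on no array above it.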
